A study of Mus musculus with 12 samples.

Results

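Solute carriers are membrane proteins that move amino acids, sugars, metals, ions, nucleotides and vitamins across the membranes of a cell, and their genes are numbered by family, each named Slc, a family number and a member. The genes described here were those whose symbol begins with Slc, a number and the letter a, apart from Slc6a14, with an authors' mean of at least 200 in TOTAL. Of 342 such gene rows, 149 passed this limit and 193 did not, of which 22 were listed at 0 in TOTAL. The 149 members belonged to 41 families and came from a table of 20981 gene rows, of which 20980 were used. Of these, 9664 had a TOTAL mean of at least 200 and served as the comparison set, called all genes below. Just above the limit stood Slc25a15 with a TOTAL mean of 201.8, Slc16a13 with 208 and Slc29a3 with 217.4, and just below it Slc4a8 with 191.3, Slc13a4 with 198.6 and Slc25a22 with 199.2. Members were chosen by their symbol and selected on the TOTAL mean, and the means of the 4 groups were known when the family was picked out, so all values below are descriptions.

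The libraries were made from testes of C57BL/6 Mael-/- mice of 3 months of age. Mael encodes a factor of the piRNA pathway, which silences retrotransposons in germ cells, and in its absence spermatocytes make large amounts of the LINE-1 protein ORF1p, which binds RNA. Testis extracts, to which 10 mM EDTA had been added, are called TOTAL. Pooled fractions 5 to 8 of a 10-50% sucrose gradient of these extracts are called INPUT, and the INPUT was incubated either with an antibody against ORF1p (IP) or with beads lacking one (BO). Each of the 4 groups had 3 libraries, 12 in all, and every group was Mael-/-, so that no wild-type animal enters any comparison. The gene tables give 1 mean for each group and no value for a single library, beside the results of the authors' own comparisons, which were not used. No replicate error and no test is therefore given here, and each log2 ratio of means carries only a counting error, which is the standard error expected from the number of reads. The table with BO has a scale of its own, so a BO mean is set only beside the IP mean of that table. Mael itself had a mean of 0.65 in TOTAL, 0.502 in BO and 0 in INPUT and IP.

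Most solute carriers are threaded into the membrane of the endoplasmic reticulum (ER) while they are being made, so their mRNAs are read by ribosomes bound to the ER. The mitochondrial carriers of family SLC25 are the main exception, being made on ribosomes in the cytosol and imported afterwards, mostly into the inner mitochondrial membrane. This separated 35 SLC25 members from 114 members of other families. The symbol rule also took in 3 genes that carry a transporter's name without being one, namely Slc4a1ap, Slc7a6os and Slc9a3r1, which encodes a scaffold that binds a proton exchanger. Slc3a2 encodes a heavy chain that pairs with several amino acid transporters rather than a channel of its own. All 149 members matched a gene of the GENCODE M21 annotation of build GRCm38, and their longest transcripts ran from 1240 to 18464 nt.

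Some facts of the whole series bear on every value below. BO replicate 3 stood apart in the table of repeats, where large subunit rRNA made up 52.1% of its repeat signal, against 3.18% and 3.25% in the other BO libraries, and the BO means could not be recomputed without it. The libraries behind the BO mean also differed most in depth, by a ratio of 2.1, against 1.27 to 1.56 in the other groups. Markers of cell types differed between TOTAL and IP. The summed level of 12 spermatocyte markers was 46999 in TOTAL, 53173 in INPUT and 245670 in IP, with a log2 ratio of the sums of 2.87 over BO, and 11 of the 11 with a TOTAL mean of at least 200 were more than 2-fold higher in IP than in TOTAL. For 7 Leydig cell markers the sums were 81766, 44923 and 15680 in the same order, with 0.77 over BO and 7 of 7 more than 2-fold lower in IP than in TOTAL. For 10 Sertoli cell markers they were 102060, 108120 and 30848, with -0.27 over BO and 7 of the 9 at 200 or more lower by that measure. Clu alone held 66084, 78351 and 20786 of these sums, which therefore mostly follow that gene. The 8 spermatogonia markers went both ways, with 1 higher and 2 lower of the 6 at 200 or more and sums of 6088 in TOTAL and 5165 in IP, while markers of macrophages, vessels and peritubular cells summed to 9362 in TOTAL and 5077 in IP over the 8 of 9 listed in the table. Of 8 spermatid markers, 7 were under 200 in TOTAL and none was listed at 0 there. The part of these cell types in the members' values was not tested, and a level in a tissue extract cannot tell fewer cells of a type from less RNA per cell, while ratios between groups compare fractions of an extract.

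The first question was how solute carrier mRNAs stood in the ORF1p IP relative to the whole extract. They stood lower than genes in general. The median log2 ratio of IP over TOTAL was -0.55 over the 149 members and 0.10 over all genes. In IP, 9 members (6.04%) were more than 2-fold higher than in TOTAL, where 21.9% of all genes were, and 44 members (29.5%) were more than 2-fold lower, where 23.1% of all genes were. Without the 3 genes that are not transporters, 8 of 146 were higher and 44 lower. Scaled to the summed means of genes, 2 of the 149 were higher and 78 lower, against 9.69% and 34.4% of all genes. Counting errors over the members had a median of 0.0446 on the log2 scale and at most 0.14, for Slc16a13, and were small beside a 2-fold ratio.

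The second question was how much of this arose before the antibody, in the choice of gradient fractions, and how much after it. The ratio of INPUT over TOTAL was not in any table, and was obtained through the IP means that 2 separately scaled tables share, centred on the median gene. By this measure 6 members (4.03%) were more than 2-fold higher in INPUT, as were 4.26% of all genes, and 10 (6.71%) were more than 2-fold lower, as were 15.4% of all genes. The members' median was 0.18, with all genes at 0. Without this centring, as the 2 tables scale them, 0 members were more than 2-fold higher, against 1.945% of all genes. The medians were then 0.040 and -0.14. In IP over INPUT, by contrast, 8 members (5.37%) were more than 2-fold higher, where 21.3% of all genes were, and 45 (30.2%) were more than 2-fold lower, where 12.3% of all genes were. The median was -0.46 for the members and 0.27 for all genes, and 46 members (30.9%) had a ratio above 0, against 60.2% of all genes. Scaled to the summed means of genes, 2 members were more than 2-fold higher in IP than in INPUT and 74 lower, against 8.23% and 23.9% of all genes. Both comparisons hold the INPUT mean, with opposite signs, so a gene low in INPUT alone would be lower in the one and higher in the other.

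The third question was how the IP compared with beads alone. In IP over BO, 43 members (28.9%) were more than 2-fold higher, where 46% of all genes were, and 26 (17.4%) were more than 2-fold lower, where 10.3% of all genes were. The members' median was 0.34 and that of all genes 0.88. The sign of the members' median in this comparison depended on the scaling, being -0.54 when centred on the median gene and -0.29 when scaled to the upper quartile. Every such scaling shifts members and all genes alike, so only the distance between them, 0.54, is free of it. With a TOTAL mean of at least 500 that distance was 0.88, and with no limit on the mean 0.40. The 3 comparisons share the IP libraries and are not independent of each other. Members more than 2-fold higher in IP than in both BO and INPUT numbered 5 (3.36%), against 16.5% of all genes, and those higher than in all 3 other groups numbered 4 (2.68%), against 10.1%. These 4 were Slc25a31, Slc25a25, Slc25a40 and Slc4a1ap, of which 3 are mitochondrial carriers and the other is not a transporter. Members with a ratio below 0 in all 3 comparisons numbered 40 (26.8%), against 13.4% of all genes.

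SLC25 and the rest differed in their medians. The 35 SLC25 members were low in INPUT over TOTAL, with a median of -0.55, 8 more than 2-fold lower (15.4% of all genes were), and 29 of 35 below 0. The 114 others had a median of 0.33 there, with 6 more than 2-fold higher, where 4.26% of all genes were, and 2 more than 2-fold lower. All 6 rested on the centring, since 0 of the 149 members passed as the 2 tables scale them. In IP over INPUT, which shares the INPUT means with opposite sign, the SLC25 median was -0.18, with 4 members higher and 3 lower by more than 2-fold, while the other members had a median of -0.51, with 4 higher and 42 lower, beside 21.3% of all genes higher and 12.3% lower. Against BO, 18 of 35 SLC25 members (51.4%) were more than 2-fold higher and 3 (8.57%) were lower, close to the 46% and 10.3% of all genes, with a median of 1.01 (0.13 when centred on the median gene), and of the 114 others 25 were higher and 23 lower, with a median of 0.18 (-0.71 when centred, and also below 0 under both other scalings). The SLC25 median lay 0.88 below that of the others in INPUT over TOTAL, and 0.33 and 0.84 above it in IP over INPUT and IP over BO. In IP over TOTAL the medians were -0.84 in SLC25 and -0.38 in the others. SLC25 transcripts were also shorter, with a median longest transcript of 2670 nt and a median coding length of 954 nt, against 4039 nt and 1640 nt in the others. Among members no longer than the median member, 26 SLC25 genes lay 0.71 below 49 others in INPUT over TOTAL and 0.32 above them in IP over INPUT. That limit was on the whole transcript, and coding lengths were not matched. With the same limit on length the difference shrank to 0.33 in IP over BO and to -0.19 in IP over TOTAL. In IP over TOTAL its sign depended on the range of length. Between 1240 and 3120 nt the median was -1.06 for 19 SLC25 genes and -1.19 for 31 others. From 3121 to 4426 nt it was -0.84 for 10 and -0.45 for 39, and from 4430 nt up -0.26 for 6 and 0.09 for 44.

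**Figure D1:**
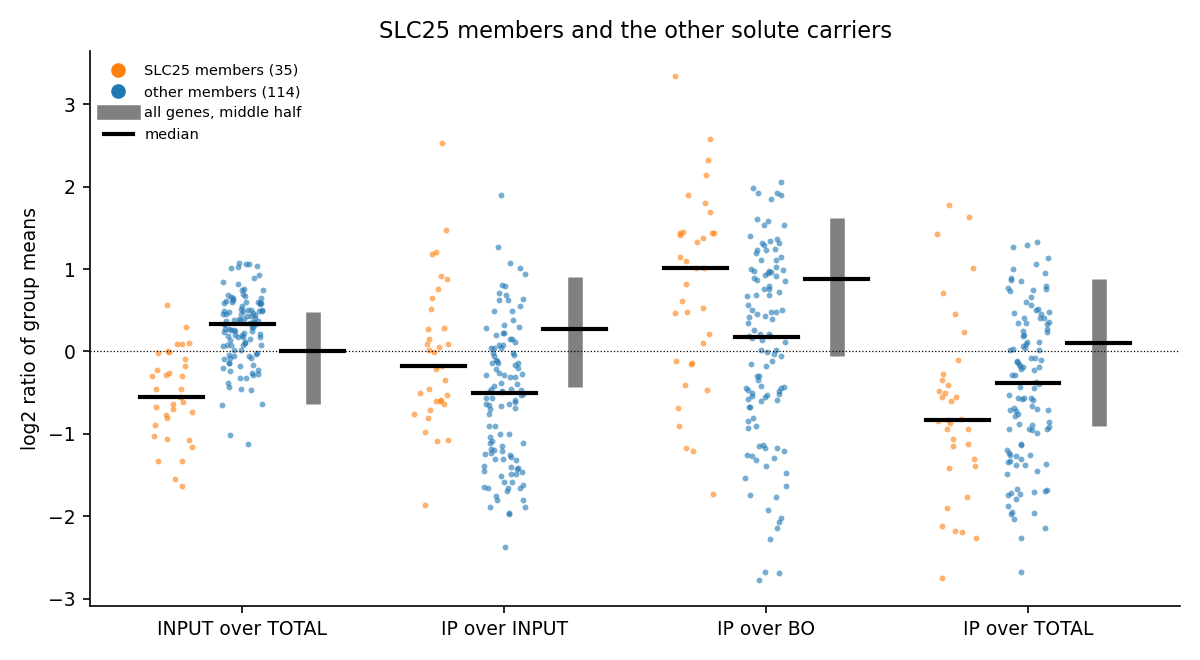
Log2 ratios of group means for the 35 SLC25 members (orange points), the 114 other members (blue points) and all genes with a TOTAL mean of at least 200 (grey bars, from the lower to the upper quartile), in 4 comparisons, with medians as black lines. In INPUT over TOTAL the SLC25 members lie lower (median -0.55) than the others (0.33), and in IP over INPUT they lie higher (-0.18 against -0.51).

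The ADP/ATP carriers, which exchange mitochondrial ATP for cytosolic ADP, showed the widest contrast within the family in IP over TOTAL. Slc25a31, on chromosome 3 (40708855 to 40726096, plus strand, GRCm38), encodes the form of this carrier found in the testis. Its means were 1917 in TOTAL, 1145 in INPUT and 6571 in IP, and in the table with BO they were 496.5 in BO and 5039 in IP. It was the highest of the 149 members in all 3 IP comparisons, with log2 ratios of 1.78 ± 0.02 (counting error) over TOTAL, 2.53 ± 0.03 over INPUT and 3.34 ± 0.04 over BO. Slc25a5, on chromosome X (36795651 to 36798807, plus strand), encodes the form of most dividing cells, and had means of 3707 in TOTAL, 1084 in INPUT and 549.7 in IP. It was the lowest of the 149 in IP over TOTAL, at -2.75 ± 0.04, and also in INPUT over TOTAL, at -1.64. Slc25a4, the form of muscle and heart, on chromosome 8 (46206797 to 46211284, minus strand), had means of 3320, 1035 and 729.1 in the same order and a ratio of -2.19 ± 0.04 in IP over TOTAL. Both of these were higher in IP than in BO, by 1.33 and 1.01, where the median of all genes was 0.88. All 3 transcripts were short, at 2128, 1240 and 1925 nt, and Slc25a31 too was lower in INPUT than in TOTAL, by a log2 ratio of -0.61. Slc25a4 stood at -1.55 in that comparison, so the testis form already stood above both paralogues in INPUT, and the step to IP, at -0.98 for Slc25a5 and -0.50 for Slc25a4, set them further apart. The annotation holds a pseudogene of Slc25a5, and the tables set reads with several positions apart in a row of their own, so Slc25a5 may be undercounted in every group.

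Other mitochondrial carriers lay between these in IP over TOTAL. Slc25a25, which exchanges ATP-magnesium for phosphate, had means of 896.2 in TOTAL, 1204 in INPUT and 2769 in IP, and ratios of 1.63 over TOTAL, 1.20 over INPUT and 1.80 over BO. Its relatives with the same substrate, Slc25a24 and Slc25a23, were at -0.87 and -1.15 in IP over TOTAL. Slc25a40, a glutathione carrier, stood at 1.42, 1.47 and 1.38 in the 3 IP comparisons, while Slc25a39, which carries the same substrate, stood at -0.95 over TOTAL, 0.52 over INPUT and 1.41 over BO. Slc25a32, which carries folate and FAD, was at 1.02 over TOTAL and 1.18 over INPUT but at -0.14 over BO. These 4 genes, Slc25a31, Slc25a25, Slc25a40 and Slc25a32, were the ones more than 2-fold higher in IP than in TOTAL. Slc25a38, a glycine carrier used in haem synthesis, and Slc25a33, a pyrimidine nucleotide carrier, reached 2.58 and 2.14 over BO with 0.71 and 0.45 over TOTAL. Slc25a36, which shares the substrate of Slc25a33, was at -1.21 over BO and -0.48 over TOTAL. Slc25a17, a carrier of the peroxisome and so not a mitochondrial protein, was at 0.23 over TOTAL and 0.92 over INPUT.

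The phosphate carrier Slc25a3 was at -1.39 in IP over TOTAL and the citrate carrier Slc25a1 at -1.76. Slc25a10, which carries dicarboxylates, was at -1.41, Slc25a11, which carries oxoglutarate, at -0.82, and Slc25a20, the carnitine and acylcarnitine carrier, at -1.06. For Slc25a3, Slc25a1 and Slc25a11 the step from TOTAL to INPUT held the larger part, at -1.07, -1.03 and -0.77, and the step from INPUT to IP held -0.18, -0.60 and 0.09. Slc25a20 stood far apart by reference, with 2.32 over BO (means of 84.21 in BO and 420.3 in IP in their common table) and -0.18 over INPUT. The aspartate and glutamate carriers Slc25a12 and Slc25a13 stood close together over TOTAL, at -0.94 and -0.84, and the glutamate carrier Slc25a18 at -1.90. Slc25a21, an oxodicarboxylate carrier, Slc25a45 and Slc25a34 were at -2.19, -2.12 and -2.27 over TOTAL. For Slc25a34 most of this lay after the INPUT, with -1.87 in IP over INPUT and -0.26 in INPUT over TOTAL, and for Slc25a45 the values were -1.09 and -0.90. The remaining SLC25 members lay between -1.31 for Slc25a29, a carrier of basic amino acids, and -0.10 for Slc25a51, the NAD carrier, in IP over TOTAL. Among them Slc25a46, a protein of the outer membrane that acts in mitochondrial shape, was at -1.07 in INPUT over TOTAL and 0.65 in IP over INPUT.

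**Figure D2:**
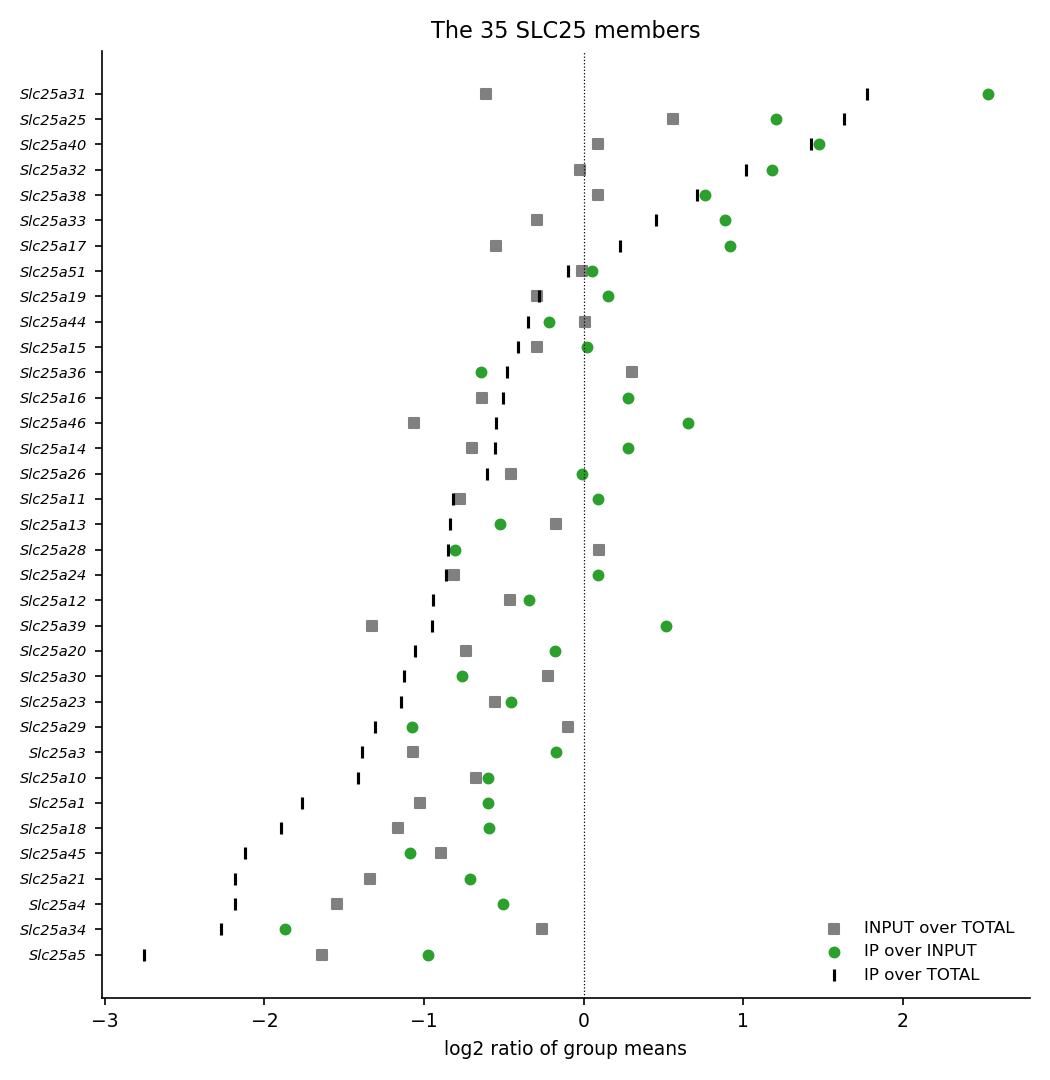
The 35 SLC25 members ordered by IP over TOTAL, with log2 ratios of group means for INPUT over TOTAL (grey squares), IP over INPUT (green circles) and IP over TOTAL (black ticks). Slc25a31 stands at the top with 2.53 in IP over INPUT, and 28 of the 35 genes lie below 0 in IP over TOTAL.

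Outside SLC25, the class of amino acid carriers had 24 members, Slc7a6os included, and lay low after the antibody. None was more than 2-fold higher in IP than in TOTAL or in INPUT, where 21.9% and 21.3% of all genes were, 9 (37.5%) were lower than in TOTAL and 13 (54.2%) lower than in INPUT, against 23.1% and 12.3% of all genes, and the class medians were -0.79 and -1.08. The range over TOTAL ran from -2.67 for Slc38a5, a glutamine carrier, to 0.996 for Slc1a4, which carries neutral amino acids and was just inside the 2-fold limit. Slc38a5 had means of 511.0 in TOTAL, 416.3 in INPUT and 80.14 in IP, and was the lowest of all members in IP over INPUT, at -2.37 ± 0.11. Slc7a5 and its partner Slc3a2, which together take up large neutral amino acids, had TOTAL means of 8216 and 6388, among the 8 highest of the members. Per kb of the longest transcript their TOTAL means were 2336 and 2271, below 2990 for Slc25a5 alone. In IP over TOTAL the pair stood at -0.94 ± 0.02 and -1.23 ± 0.02, with means in IP of 4269 and 2721, and in IP over INPUT at -1.31 and -1.01. Both were higher in IP than in BO, by 0.97 and 1.58, where the median of all genes was 0.88. Other partners of Slc3a2 differed from each other, with Slc7a6 at 0.34, Slc7a11, the cystine carrier, at -0.70 and Slc7a8 at -1.96 over TOTAL. Slc36a4, a carrier of neutral amino acids, was among the 5 highest members in INPUT over TOTAL, at 1.03, with means of 350.1 in TOTAL and 649.6 in INPUT.

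The glutamine carriers of family SLC38 spanned much of this range. Slc38a10 and Slc38a2 were at 0.48 and 0.40 in IP over TOTAL, Slc38a9, an amino acid sensor of the lysosome, at 0.06, and Slc38a1 and Slc38a7 at -0.95 and -1.38. In the table with BO, Slc38a2 had means of 15507 in BO and 3809 in IP, a ratio of -2.03. Among carriers of glutamate and neutral amino acids, Slc1a5 and Slc1a3 stood at -1.26 and -1.68 over TOTAL, and thus opposite to their relative Slc1a4. The taurine carrier Slc6a6 and the serotonin carrier Slc6a4 were at -1.26 and -1.70, and the creatine carrier Slc6a8 at 0.46.

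Vitamin and nucleoside carriers had the lowest medians of any class, -1.59 over TOTAL and -1.45 over INPUT, with 5 of 8 members (62.5%) more than 2-fold lower in each, against 23.1% and 12.3% of all genes. Slc46a3, a lysosomal protein, was the lowest at -2.27 over TOTAL, followed by the folate carrier Slc46a1 at -1.97, and Slc23a2, which takes up vitamin C, was the highest at 0.56. The nucleoside carrier Slc29a1 had means of 3476 in TOTAL, 3577 in INPUT and 1267 in IP, and a ratio of -1.46 ± 0.03 over TOTAL. The riboflavin carrier Slc52a3 had means of 2807, 2259 and 847.6 in that order, at -1.73 ± 0.03. For both the INPUT stood close to the TOTAL and the IP stood apart.

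Monocarboxylate carriers, which export or take up lactate and related acids, were divided. Of 6 members, 1 (16.7%) was higher and 3 (50%) were lower than in TOTAL by more than 2-fold, against 21.9% and 23.1% of all genes, with a median of -1.16. Slc16a1, the widespread lactate carrier, had means of 5328 in TOTAL, 5116 in INPUT and 5649 in IP, with 0.08 over TOTAL and 0.15 over INPUT, both of which turn negative when centred on the median gene. Slc16a3, the lactate exporter of glycolytic cells, was at -1.88 over TOTAL and -1.98 over INPUT, and Slc16a13 and Slc16a9 were at -2.14 and -2.04 over TOTAL. The highest was Slc16a10, a carrier of aromatic amino acids, at 1.06 ± 0.06, with means of 306.5 in TOTAL and 640.9 in IP. Medians in IP over INPUT were -1.04 for the class and 0.27 for all genes.

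Sugar carriers (11 members) were classed by family and not by the substrate of each gene, so that Slc5a6 was among them. Their median was -0.19 over TOTAL and -0.49 over INPUT. Over TOTAL 1 (9.09%) was higher and 3 (27.3%) lower by more than 2-fold, against 21.9% and 23.1% of all genes. The glucose carriers of the plasma membrane Slc2a1 and Slc2a3 were at 1.13 and 0.86 over TOTAL, and Slc2a12, the lowest of the class, at -1.67. Slc2a1 had means of 446.6 in TOTAL, 563.7 in INPUT and 979.3 in IP. Slc5a3, which takes up myo-inositol, had the highest BO mean of the members, 29279, against 4583 in IP in the same table, and means of 4509 in TOTAL, 8434 in INPUT and 5991 in IP in the tables with TOTAL and INPUT. Its ratios were 1.04 in INPUT over TOTAL, -0.49 in IP over INPUT and -2.68 ± 0.01 in IP over BO.

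The class of carriers of sodium, potassium, calcium and protons had 13 members, the scaffold gene Slc9a3r1 included. Its median was -0.22 over TOTAL, with 1 (7.69%) higher and 2 (15.4%) lower by more than 2-fold, against 21.9% and 23.1% of all genes. Over INPUT the median was -0.56, with 6 (46.2%) lower and none higher, against 12.3% and 21.3% of all genes. The highest was Slc12a2, the cotransporter of sodium, potassium and chloride, with means of 1956 in TOTAL, 2502 in INPUT and 4796 in IP, at 1.29 over TOTAL and 0.94 over INPUT. The lowest was Slc24a3, an exchanger of sodium for calcium and potassium, at -1.71. Its relative Slc24a2 was the highest of all members in INPUT over TOTAL, at 1.07, and among the 5 lowest in IP over INPUT, at -1.89. Slc12a7, a cotransporter of potassium and chloride, also stood high in INPUT over TOTAL, at 1.06. Slc8a1, the exchanger of sodium for calcium, had the longest transcript of the members and was at -2.69 in IP over BO. Carriers of bicarbonate and other anions (6 members) had a median of 0.00 over TOTAL and -0.60 over INPUT, from -0.85 for Slc26a7 to 1.33 for Slc4a1ap, which is not a transporter. Slc4a7, a bicarbonate carrier, reached 0.76 over TOTAL but -1.77 over BO, with means of 22055 in BO and 6487 in IP in their table. The anion exchanger Slc4a3 was at 1.06 in INPUT over TOTAL and -1.59 in IP over INPUT.

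Metal carriers (23 members) had a median of -0.29 over TOTAL and -0.47 over INPUT, with none higher than in TOTAL and 5 (21.7%) lower by more than 2-fold, beside 21.9% and 23.1% of all genes. The range ran from -1.95 for Slc41a3, which carries magnesium, to 0.89 for the zinc carrier Slc30a9. Slc30a4, which moves zinc into vesicles, had a TOTAL mean of 7952, also among the 8 highest, and means of 11019 in INPUT and 13334 in IP, with 0.75 ± 0.01 over TOTAL. In the table with BO its means were 13606 in BO and 10209 in IP, with -0.41. The copper carriers Slc31a1 and Slc31a2 were at -0.58 and -1.74 over TOTAL, and Slc31a2 was lower already in INPUT over TOTAL, at -1.13. The 18 members of the remaining families had a median of -0.48, with 1 (5.56%) higher and 4 (22.2%) lower by more than 2-fold, beside the same shares of all genes. Slc33a1, which brings acetyl-CoA into the ER, was the highest of them at 1.26 over TOTAL and 1.27 over INPUT, and Slc47a2, an exporter of organic cations, the lowest at -1.79 and -1.88. The choline carrier Slc44a2, among the 8 members with the highest TOTAL means at 4426, was at -0.99 over TOTAL.

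The carriers of nucleotide sugars into the Golgi, SLC35A, had a median above that of all genes in IP over INPUT. Their median was 0.68 against 0.27 for all genes, with values from 0.38 for Slc35a5 to 1.08 for Slc35a1, the carrier of CMP-sialic acid. Past 2-fold there was 1 of 5 (20%), near the 21.3% of all genes. In IP over TOTAL they were near 0, with a median of 0.01 and a range from -0.22 for Slc35a5 to 0.79 for Slc35a3, and in INPUT over TOTAL the median was -0.46. Slc35a1, for instance, had means of 724.5 in TOTAL, 327.6 in INPUT and 687.7 in IP. Of the 5, 4 were lower in INPUT than in TOTAL by this measure, and Slc35a3, with the longest transcript of them at 5725 nt, was at 0.38. In IP over BO the class lay low, with a median of 0.42 against 0.88 for all genes and 2 of 5 (40%) more than 2-fold lower, where 10.3% of all genes were.

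**Figure D3:**
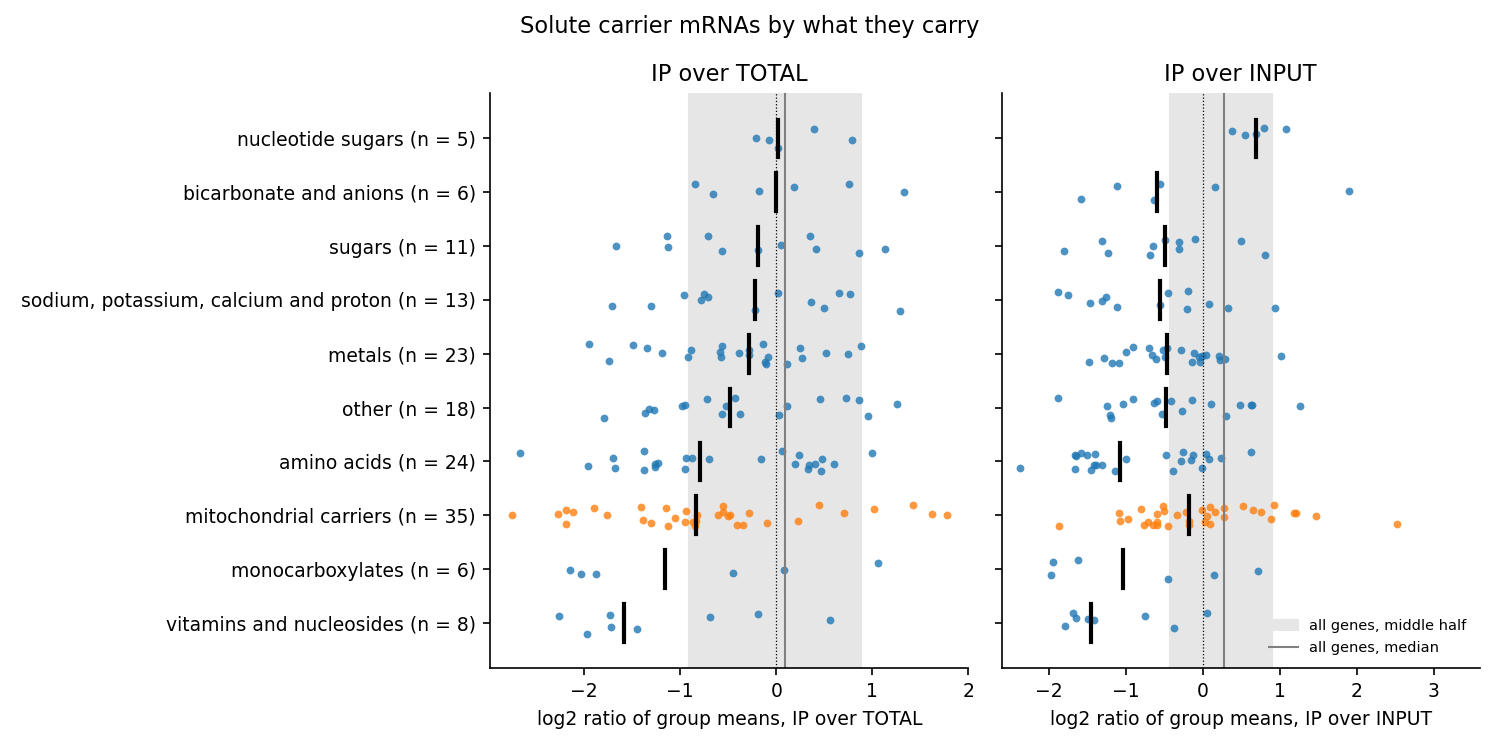
Log2 ratios of group means for the 149 members by the substrate of their family, in IP over TOTAL (left) and IP over INPUT (right). Points are genes, black bars are class medians, the grey band is the range from the lower to the upper quartile of all genes, and the grey line is their median (0.10 and 0.27). Vitamin and nucleoside carriers lie lowest in both panels, and nucleotide sugar carriers are the highest class over INPUT.

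The extremes of IP over TOTAL took a different course through the other comparisons. The 8 highest were Slc25a31, Slc25a25, Slc25a40, Slc4a1ap, Slc12a2, Slc33a1, Slc2a1 and Slc16a10, and all 8 were above 0 over INPUT as well, between 0.71 and 2.53. Over BO, 7 of them were above 0 and Slc33a1 was at -0.30, while centred on the median gene Slc12a2 (-0.69) and Slc16a10 (-0.41) also lay below 0. Slc4a1ap had means of 958.5 in TOTAL, 649.0 in INPUT and 2408 in IP, and ratios of 1.33 over TOTAL and 1.90 over both INPUT and BO. The 8 lowest were Slc25a5, Slc38a5, Slc25a34, Slc46a3, Slc25a4, Slc25a21, Slc16a13 and Slc25a45, all below 0 over INPUT. Over BO they lay between -0.90 for Slc25a21 and 1.33 for Slc25a5.

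**Figure D4:**
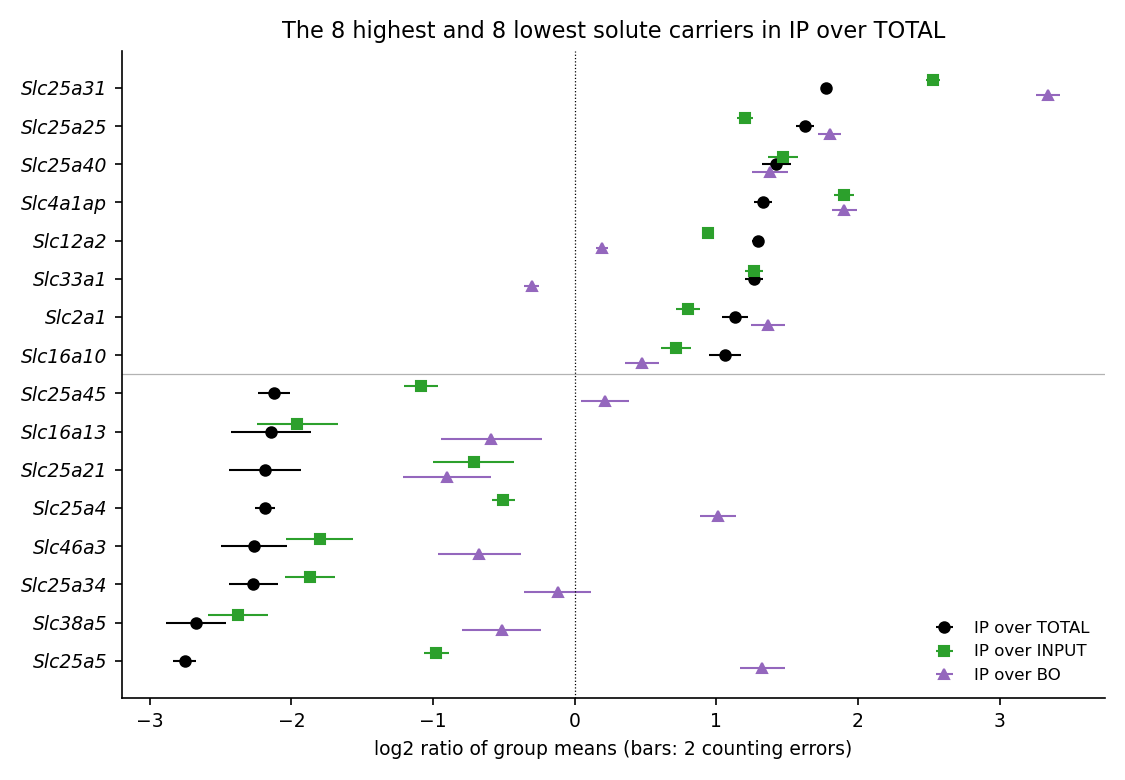
Log2 ratios of group means in IP over TOTAL (black), over INPUT (green) and over BO (purple) for the members with the 8 highest and the 8 lowest ratios over TOTAL. Bars are 2 counting errors and do not show the spread between libraries. Slc25a31 is highest in all 3 comparisons, and Slc25a5 is lowest over TOTAL (-2.75) but above 0 over BO (1.33).

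Against BO, the 5 highest were Slc25a31 at 3.34, Slc25a38 at 2.58, Slc25a20 at 2.32, Slc25a33 at 2.14 and Slc7a6os at 2.06, and Slc25a31 had the highest BO mean of these, 496.5. The BO means of Slc25a38, Slc7a6os and Slc25a33 were low, at 56.94, 68.83 and 168.8. Counting errors of their ratios were 0.13, 0.12 and 0.07. The 5 lowest were Slc7a11 at -2.78, Slc8a1 at -2.69, Slc5a3 at -2.68, Slc7a2, which carries basic amino acids, at -2.28 and Slc35a5 at -2.14. Slc7a11 had means of 6355 in BO and 924.8 in IP in their common table. Apart from Slc35a5 (4233 nt) these had transcripts of 7910 nt or more.

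Length ordered the members along both axes. Across the 149 genes, the log2 length of the longest transcript correlated with INPUT over TOTAL (Pearson's r = 0.665, Spearman's rho = 0.676) much as it did across 9289 genes matched to the annotation (r = 0.689). With IP over BO the relation ran the other way (r = -0.537, rho = -0.476 for the members, and r = -0.386 for all genes), and with IP over INPUT there was little (r = -0.0649). In IP over TOTAL, r was 0.325 for the members and 0.513 for all genes. Coding length, also on the log2 scale, correlated with INPUT over TOTAL at r = 0.654 for the members and 0.762 across 9223 genes. The GC content of the transcript correlated with IP over BO (r = 0.471 for the members, 0.207 for all genes). These correlations are across genes of the same libraries, which are not independent replicates. In IP over TOTAL, members and all genes differed by about as much within each range of length. In the shortest members (50 genes, 1240 to 3120 nt) the median was -1.13, against -0.45 for the 3133 genes in the same range. In the middle range (49 genes, to 4426 nt) it was -0.55 against 0.24, and in the longest members (50 genes, to 18464 nt) -0.02 against 0.65. In IP over BO the medians were 1.02 against 1.32 in the shortest range, 0.11 against 0.91 in the middle and -0.38 against 0.22 in the longest.

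**Figure D5:**
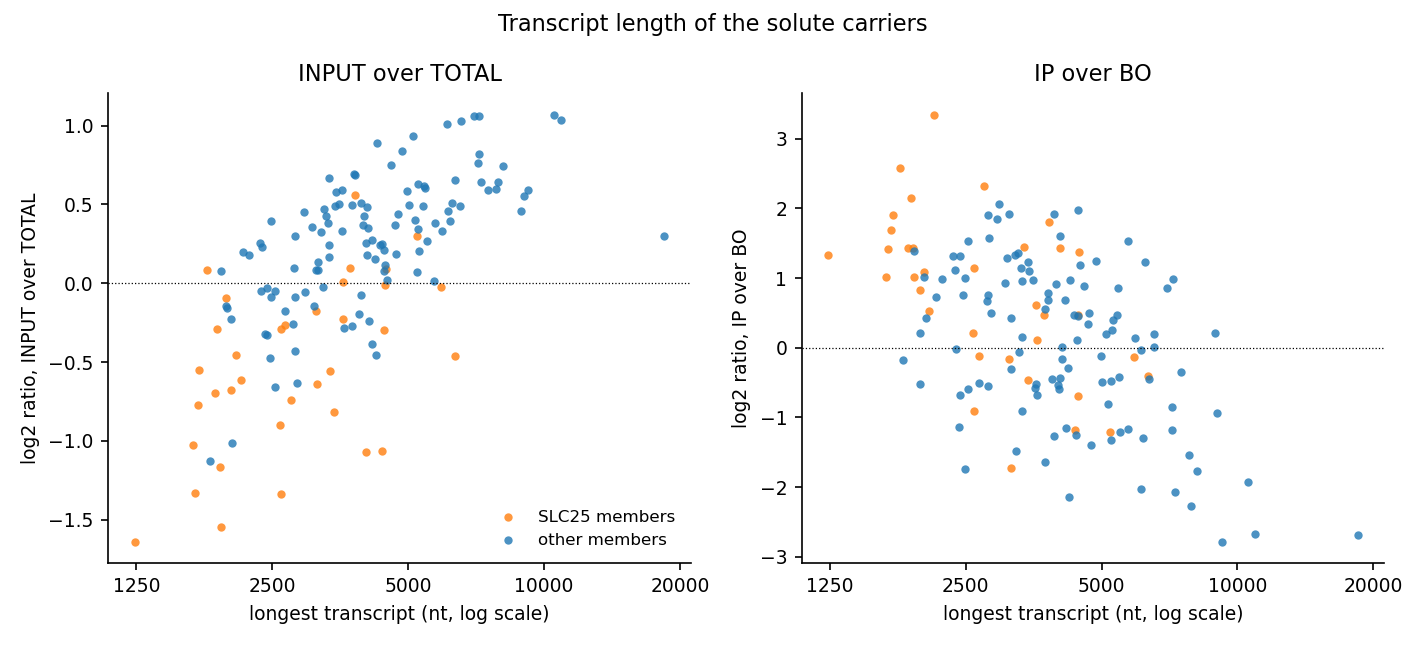
Longest transcript in GENCODE M21 (nt, log scale) against the log2 ratio of group means in INPUT over TOTAL (left) and IP over BO (right), with 1 point for each member, orange for the 35 SLC25 members and blue for the 114 others. Ratios are higher with length on the left (r = 0.665) and lower with length on the right (r = -0.537).

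Other families of proteins with several membrane spans gave a mixed picture with the same limit of 200. Of 117 Tmem genes, 13 exceeded and 39 were below their TOTAL mean in IP by more than 2-fold, with a median of -0.37, and over INPUT 22 were higher and 23 lower, with a median of 0.00. The 26 ABC transporter genes had medians of 0.13 over TOTAL and -0.51 over INPUT, and the 10 genes of ion and lipid pumps -0.20 and -0.84. Among 26 genes of the machinery that targets proteins to the ER and moves them across its membrane, 7 were higher and 2 lower over INPUT by more than 2-fold, with a median of 0.56. Over BO, 18 of these 26 were higher and none lower, with a median of 1.81. Beside these stand 21.9% of all genes higher and 23.1% lower over TOTAL, 21.3% and 12.3% over INPUT, and 46% and 10.3% over BO. The all-gene medians were 0.10, 0.27 and 0.88. No difference between these families and the members was tested. 7SL, the RNA of the particle that brings ribosomes to the ER, made up 38.1% to 51.6% of the repeat signal in the 3 TOTAL libraries, 17% to 18.7% in INPUT, 1.16% to 1.63% in IP and 0.00882% to 0.224% in BO. These are shares within each library, and so depend also on the level of the other repeats in it.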

How the data were processed

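The authors mapped reads of rRNA-depleted stranded libraries to mm10 with STAR 2.6.0c and normalised them with DESeq2 1.24.0, separately for IP with TOTAL, with INPUT and with BO. In the 3 deposited tables the signal values are the authors' means of normalised reads for each group, and the columns of their own fold changes, standard errors and p-values were not used. Rows that name no gene held 21.6% to 37.1% of the summed means and were left out. In the deposited table of repeats the signal values are reads of repeats per library, normalised by the authors to the upper quartile. It was used for shares of single repeats. No gene counts per library were used, so that depth is known only as a ratio, from the smallest steps between low means.

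Log2 ratios of means were taken within a table with no pseudocount, and a gene was counted as higher or lower past 2-fold. Counting errors came from the same steps and exclude the spread between libraries. INPUT over TOTAL was the difference of 2 ratios, centred on the median gene. IP means differed between tables by a near constant factor (1.004 for INPUT and 0.766 for BO, relative to TOTAL). Lengths and GC content are those of the longest transcript in GENCODE M21, coding length that of the longest coding sequence. Genes named are the 8 highest and 8 lowest in IP over TOTAL, the 5 highest and 5 lowest in the other comparisons, the 8 with the highest TOTAL means, SLC25 (some members only within a range), and the ends of each class, with relatives added after their values were seen. Other members entered counts and medians only and are not reported here by name. Other scalings, pseudocounts, limits and folds were tried as alternatives. Members, classes and lists were chosen with earlier results of these data known. Python 3.11.15, numpy 2.4.6, pandas 2.3.3 and scipy 1.17.1 were used.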

Additional observations from a re-analysis of the deposited data

How the results depend on the processing

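Scaling moved the counts and medians of the members, but it shifts all genes alike and cannot change the distance of the members' median below that of all genes, which was 0.65 over TOTAL, 0.73 over INPUT and 0.54 over BO. That distance was 0.37, 0.58 and 0.40 with no limit on the mean, and 0.73, 0.83 and 0.88 with a TOTAL mean of at least 500. Centred on the median gene, 3 members were more than 2-fold higher over INPUT with a median of -0.73, and over BO 10 were higher and 58 lower with a median of -0.54, against 13.6%, 17.2% and 23.8% of all genes. Scaled to the summed means of genes, 2 were higher and 78 lower over TOTAL (median -1.07), and 2 higher and 74 lower over INPUT (median -0.99), against 9.69%, 34.4%, 8.23% and 23.9% of all genes. Scaled to the upper quartile, 3 were higher over INPUT (median -0.81), and 13 were higher and 50 lower over BO (median -0.29), against 11.6%, 24.7% and 19.1%. As the 2 tables scale them, 0 members were more than 2-fold higher in INPUT than in TOTAL, against 1.945% of all genes. The members' median was then 0.040, with all genes at -0.14. With a TOTAL mean of at least 500, 28 of 101 members were lower over TOTAL and 27 over INPUT, and 25 were higher over BO, with a median of -0.013, against 20.9%, 11% and 45.9% of all genes. With no limit on the mean, 37 (11.8%) of 313 were higher and 96 (30.7%) lower over TOTAL, against 20.9% and 28% of all genes. Over INPUT, 29 (9.3%) of 312 were higher and 92 (29.5%) lower, against 21.3% and 17.1%. Over BO, 93 (30.8%) of 302 were higher and 46 (15.2%) lower, against 42.5% and 12.8%. In INPUT over TOTAL, 27 (8.85%) of 305 were higher and 25 (8.2%) lower, against 6.83% and 17.1%. At 1.5-fold, 22 of the 149 members were higher and 69 lower over TOTAL, against 34.5% and 32.1% of all genes. At that fold 20 were higher over INPUT, against 37.2%. In INPUT over TOTAL, 26 were higher and 20 lower, against 20% and 26.8%. With a mean of at least 100 in every group, a choice made after seeing the data, 26 of 121 (21.5%) were lower over TOTAL, against 13.7%. The 46 ratios at the ends of the comparisons kept their sign, while other named ratios did not. Among these, centred on the median gene, Slc16a1 was at -0.01 over TOTAL and -0.12 over INPUT, Slc38a9 at -0.03 over TOTAL Slc25a11 at -0.18 over INPUT, Slc12a2 at -0.69 over BO, Slc16a10 at -0.41 over BO and the SLC35A median at -0.46 over BO. Summed scaling shifts IP over TOTAL by -0.52, IP over INPUT by -0.53 and IP over BO by -0.29. In each comparison this turns any named ratio between 0 and the size of the shift. The differences of medians between SLC25 and the other members kept their sign when settings changed and among transcripts up to the median member's length. Within ranges of length, the difference in IP over TOTAL changed sign. From 1240 to 3120 nt the SLC25 median was -1.06 and that of the others -1.19. The size of the differences also varied. It was 0.54 over BO without Slc25a4, Slc25a5 and Slc25a31, and 0.40 over BO with a TOTAL mean of at least 100. With no limit it was 0.24 over BO and 0.15 over INPUT. No paired analysis was possible because the gene tables hold 1 mean for each group. For the same reason no library was left out and no test with edgeR or limma was run, and the share of BO replicate 3 in the BO means is not known.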
